A study of Saccharomyces cerevisiae with 8 samples.

Results

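The genes described here are 53 genes of amino acid biosynthesis and its control in Saccharomyces cerevisiae, chosen by gene name from the 6600 protein-coding genes of the count tables. They are GCN4 and the genes of 7 pathway families: 6 for arginine, 7 for histidine, 11 for the branched-chain amino acids, 7 for lysine, 12 for the aromatic amino acids, 5 for threonine and 4 for serine. The data are RNA-seq counts from 4 evolved strains with 2 replicate cultures each. All 4 derive from FY4, a prototrophic S288C strain, carry a fluorescent reporter of GAP1 copy number and were isolated from long glutamine-limited cultures, so that each stands for 1 evolved lineage. All carry extra copies of GAP1, the gene of the general amino acid permease, in a copy number variant (CNV) on chromosome XI. DGY1726 (Trans) has a tandem duplication within a translocation and a further CNV on chromosome V. DGY1735 (ODIRA_A) and DGY1743 (ODIRA_B) have triplications formed by origin-dependent inverted-repeat amplification. DGY1741 (ComQuad) has the shortest amplified stretch, in which GAP1 itself is amplified once more. DGY1726 and DGY1735 were isolated after fewer generations than DGY1741 and DGY1743. The cultures ran in chemostats on minimal medium with glutamine as the limiting nutrient, at 30 °C with a doubling time of 5.8 h, for 24 h of continuous flow before cycloheximide was added and cells were harvested. The ancestor was not analysed here, so every comparison is between evolved strains.

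Gcn4 is the transcription factor of general amino acid control in yeast. Its mRNA is translated poorly while amino acids are plentiful, because short upstream reading frames in the leader hold back ribosomes, and better when uncharged tRNA activates the kinase Gcn2. Gcn4 then binds upstream of biosynthesis genes in most amino acid pathways, beside regulators that answer to a single pathway, such as Leu3 for leucine, Lys14 for lysine and the Arg80, Arg81 and Mcm1 complex for arginine. Because the level of Gcn4 protein is set mainly by translation, a count of GCN4 mRNA does not measure it.

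All 53 members had a row in every table, passed the minimum mean of 100 counts and had counts in all 8 libraries. Together they took between 153981 and 220105 counts per library, of a protein-coding total between 9125509 and 13205947. Transcripts of the mitochondrial genome took 13.2% and 19.2% of the protein-coding counts in the libraries of DGY1743 and 0.0534% to 0.0957% in the other 6. Their part in the results was not tested beyond a scaling on nuclear genes alone, which shifted the strains by -0.0109 to 0.0104 on the log2 scale. The members took 1.81% and 1.84% of the nuclear protein-coding counts in DGY1726, 1.79% and 1.72% in DGY1735, 1.52% and 1.52% in DGY1741, and 1.69% and 1.67% in DGY1743. Their share was thus lowest in both DGY1741 libraries and highest in both DGY1726 libraries. None of the 53 lies on an amplified segment, so copy number of the CNVs does not enter their own values. A median member differed by 1.08 to 1.11-fold between the replicates of a strain, and the widest such gap was 1.81-fold, for SER3 in DGY1735.

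The letters upstream of the genes were read from the RefSeq R64 genome, whose chromosome lengths and gene coordinates were those of the deposited tables. The 250 bases before each start codon were searched on both strands for TGACTC, the core of the Gcn4 site. They held it in 28 of the 53 members (52.8%), against 425 of 6571 genes with a sequence (6.47%). GATAAG, the site of the GATA factors that answer to the nitrogen source, stood before 11 members (20.8%) and before 12.4% of all genes. CGGNNCCG, the inner letters of the Leu3 site, stood before 4 members (7.55%) and before 0.883% of all genes. No match of one motif overlapped a match of another in these genes. TGACTC stood before 6 of 7 histidine genes, 3 of 4 serine genes, 3 of 5 threonine genes, 6 of 11 branched-chain genes, 3 of 6 arginine genes, 3 of 7 lysine genes and 4 of 12 aromatic genes, and not before GCN4. A match is a string of letters and does not show that a factor was bound.

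The 4 members with the inner Leu3 letters all belong to the branched-chain family, whose levels differed most often among the strains, and are shown with the match in capitals, read 5′ to 3′ on the strand of the gene.
LEU2, chrIII:91116-91145, plus strand: ggtgagagcgcCGGAACCGgcttttcatat
LEU1, chrVII:478850-478879, minus strand: aacgaaaattcCGGGACCGgcgaaatttgc
BAT1, chrVIII:517375-517404, plus strand: attgtgtttgcCGGTACCGgcctttaagct
ILV3, chrX:466368-466397, minus strand: ttcgctgcgagCGGAACCGggcctgaaaaa
In each the motif begins between 146 and 216 bases before the start codon.

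For comparison of the Gcn4 core, 1 site is shown from each of 5 members described below, again with the match in capitals. Capitals that read GAGTCA mark the same core on the other strand.
HIS4, chrIII:68515-68544, minus strand: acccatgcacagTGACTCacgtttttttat
LEU4, chrXIV:426838-426867, minus strand: cttacgtgtaagTGACTCagttctttcaaa
THR4, chrIII:216506-216535, plus strand: gtgcgaacaaaaGAGTCAttacaacgagga
LYS1, chrIX:420853-420882, minus strand: ttcagcgacaaaGAGTCAtaaagtcatcct
SER33, chrIX:222627-222656, minus strand: cacgctggaaacGAGTCAccgttatgaaaa

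Several members whose levels varied widely had no TGACTC in this window but held the GATA letters, of which 4 are shown. Other members with the GATA letters varied less, such as HOM6, whose strain means spanned 0.35 on the log2 scale. CTTATC marks the other strand.
CPA1, chrXV:882761-882790, plus strand: ttatatgtttagCTTATCgaactctcaata
ARG1, chrXV:219137-219166, plus strand: ccattgtgcagcGATAAGgaacattgttct
SER3, chrV:322542-322571, plus strand: gagggagcagagGATAAGgaaattcttaaa
ARO8, chrVII:115892-115921, plus strand: gcaatcttttttCTTATCttgtagaccctc

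Differences among the strains were widespread in these genes. With all 8 libraries, 32 of the 53 members (60.4%) differed among the 4 strains in edgeR's quasi-likelihood test at a Benjamini-Hochberg adjusted p under 0.05, against 47.3% of the 5527 genes tested. The range of strain means of the 53, from lowest to highest strain, had a median of 0.54 on the log2 scale, against 0.44 over all tested genes. In the 32 members that passed the test, this range ran from 0.43 to 2.16. DGY1741 had the lowest strain mean in 21 of those 32 and DGY1726 the highest in 17. Over all 53 members, DGY1741 was the lowest strain in 26 and DGY1726 the highest in 22. Over all 5527 tested genes, DGY1741 was the lowest in 1676 and DGY1726 the highest in 1353. By family, 10 of 11 branched-chain genes passed, as did 3 of 4 serine, 4 of 6 arginine, 7 of 12 aromatic, 3 of 7 histidine, 3 of 7 lysine and 2 of 5 threonine genes. GCN4 did not pass.

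**Figure D1:**
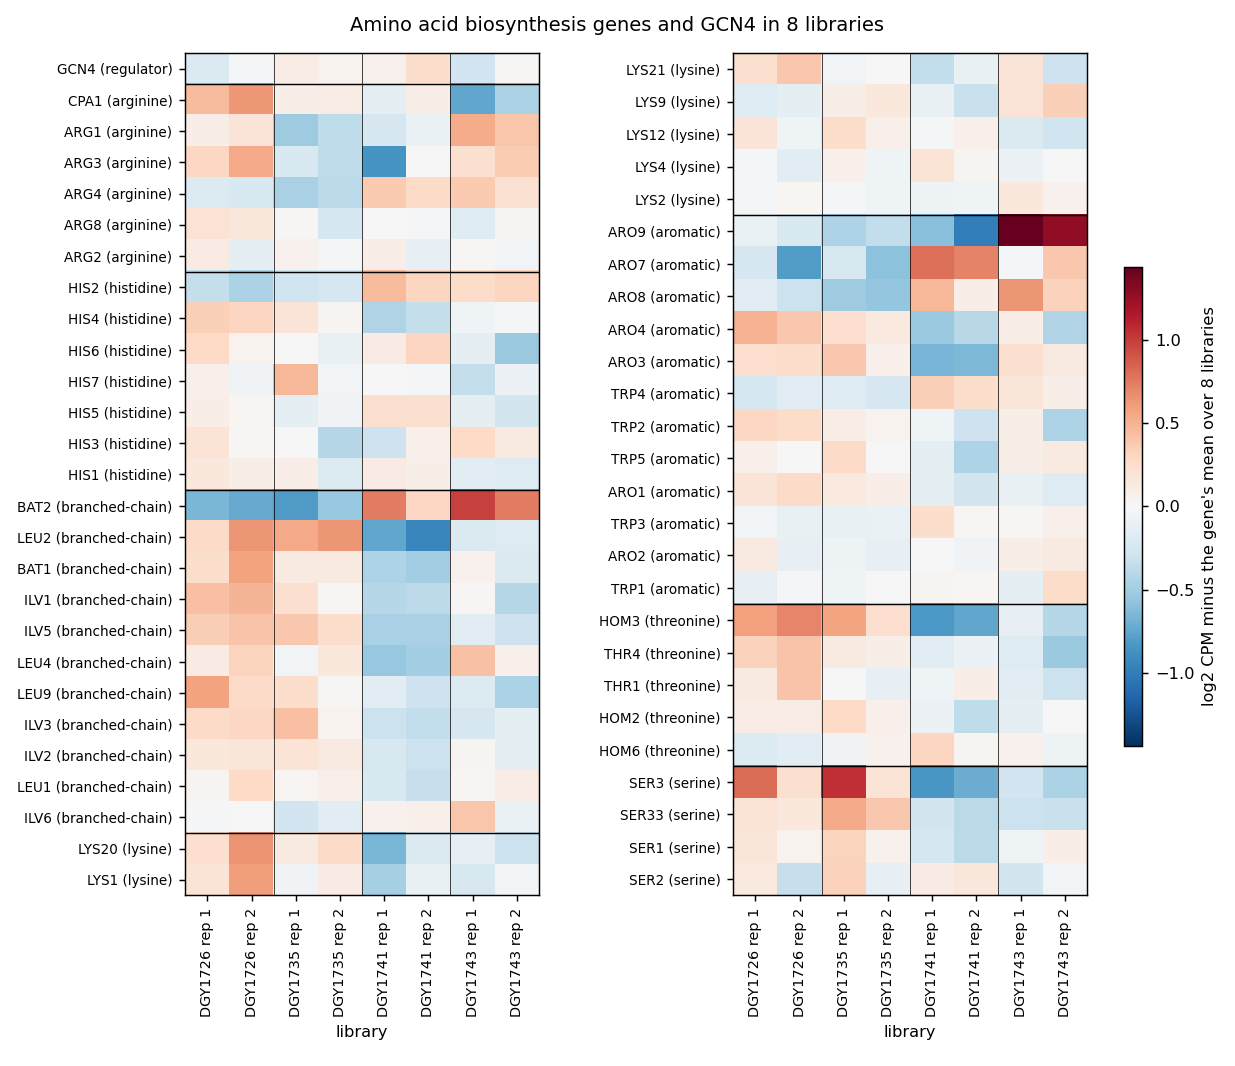
Each row is a member, ordered by family and then by the range of its strain means, and each column a library. Colour gives log2 CPM minus the gene's mean over the 8 libraries, so that red is above and blue below that mean. The branched-chain rows are mostly blue in both DGY1741 libraries, except BAT2 and ILV6, and ARO9 is deep red in both DGY1743 libraries.

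GCN4 (YEL009C, chromosome V) was the member with the highest level per length, at a mean of 1325 CPM (counts scaled to a common library size) per kb over the strains, ahead of ILV5 at 1127. Its level was 966 and 1105 CPM in DGY1726, 1196 and 1157 in DGY1735, 1164 and 1330 in DGY1741, and 922 and 1126 in DGY1743. The strains overlapped, and the widest gap between strain means was 1.22-fold, with DGY1741 above DGY1743. The test among the strains gave an adjusted p of 0.251 in edgeR. In the pair nearest to the threshold, DGY1726 was below DGY1741 by 0.27 on the log2 scale (SE 0.12, adjusted p = 0.0753). GCN4 thus had its highest mean in DGY1741, the strain with the lowest mean of 26 other members, but since no difference in GCN4 was called this order is a description only.

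Genes that set Gcn4 translation and turnover were described from a list of 6, of which 2 (33.3%) differed among the strains, a smaller share than the 47.3% of all tested genes. GCN2, the kinase of the initiation factor eIF2, stayed between 390 and 448 CPM in all 8 libraries (adjusted p among strains 0.788, edgeR). GCN3, a regulatory subunit of the exchange factor eIF2B, was at 343 and 290 CPM in DGY1726, 412 and 316 in DGY1735, 133 and 126 in DGY1741, and 275 and 341 in DGY1743. Both DGY1741 libraries were below all others, by 2.38-fold against DGY1743 (adjusted p = 2.59e-18). GCN3 lies on chromosome XI inside the amplified spans described for the other 3 strains and outside that of DGY1741, so that copy number and other differences of the strain cannot be told apart. PCL5, the cyclin that directs Gcn4 to degradation and is itself a Gcn4 target, was at 115 and 96.5 CPM in DGY1726, 90.9 and 88.2 in DGY1735, 102 and 101 in DGY1741, and 146 and 116 in DGY1743. The DGY1743 strain was above DGY1735 by 1.46-fold (adjusted p = 0.0365) and above DGY1741 by 1.29-fold (adjusted p = 0.0337). BAS1, whose Myb-type product acts with Pho2 at HIS4 and at purine genes, was at 386 and 330 CPM in DGY1726, 567 and 471 in DGY1735, 179 and 167 in DGY1741, and 169 and 168 in DGY1743. Both libraries of DGY1726 and of DGY1735 were above the other 4, by 2.06-fold for DGY1726 against DGY1741 (adjusted p = 9.12e-07). BAS1 lies near the right end of chromosome XI, inside the amplified span described for DGY1735 and outside those of DGY1741 and DGY1743. In DGY1726 it lies beyond the tandem duplication, which the paper places within a translocation on chromosome VIII. That translocation was not mapped here. For DGY1726 and for DGY1735, copy number and other strain differences cannot be told apart.

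**Figure D2:**
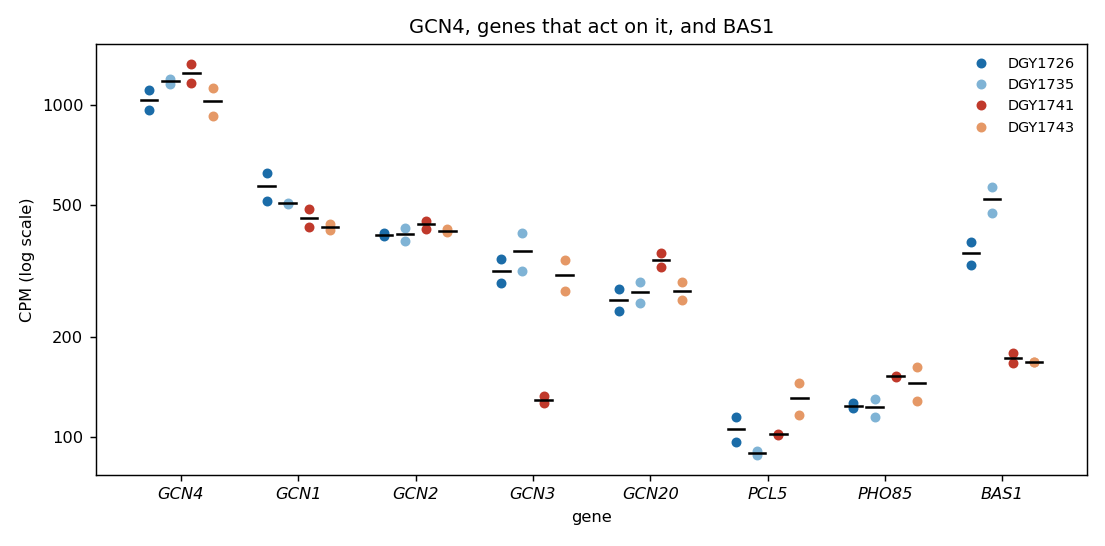
CPM on a log axis for GCN4, the genes that act on its translation or turnover, and BAS1. Points are libraries in colours by strain and bars are strain means. GCN4 spans 922 to 1330 CPM with overlapping strains, while GCN3 is at 126 and 133 CPM in DGY1741 and at 275 or above in the other 6 libraries.

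Arginine genes did not move as a block. CPA1 (YOR303W) encodes the small subunit of the arginine-specific carbamoyl phosphate synthetase. Its level was 1284 and 1441 CPM in DGY1726, 993 and 1009 in DGY1735, 850 and 1002 in DGY1741, and 556 and 681 in DGY1743. DGY1726 was the highest and DGY1743 the lowest, with no overlap of either with another strain, and they differed by 2.21-fold (log2 1.15, SE 0.16, adjusted p = 1.47e-05, edgeR). ARG1 (YOL058W), argininosuccinate synthetase, had the opposite end at the top, with 494 and 526 CPM in DGY1726, 324 and 359 in DGY1735, 391 and 434 in DGY1741, and 670 and 608 in DGY1743. No 2 strains overlapped for ARG1. ARG1 was higher in DGY1743 than in DGY1735 by 1.86-fold (adjusted p = 0.00405) and than in DGY1741 by 1.56-fold (adjusted p = 0.000147). So 2 enzymes of 1 pathway put DGY1743 at opposite ends. The call of ARG1 between DGY1726 and DGY1741 (1.23-fold, adjusted p = 0.0406) was lost without DGY1726 replicate 2 (adjusted p = 0.224) and without DGY1741 replicate 1 (0.235), and in a fit of all 8 libraries (0.0577). CPA1 was above DGY1743 also in DGY1735 (1.63-fold, adjusted p = 0.02), a call lost without either DGY1743 library (adjusted p 0.109 and 0.0686), and in DGY1741 (1.49-fold, adjusted p = 0.00165), lost without DGY1741 replicate 2 (0.112). ARG2, acetylglutamate synthase and the first step of the route, had the smallest range of strain means of the 53, at 0.03 on the log2 scale, with 72.3 to 86.1 CPM over the 8 libraries. Among pathway genes outside the 53, ARG5,6, which supplies the next steps to ornithine, was at 574 and 554 CPM in DGY1726, 394 and 371 in DGY1735, 441 and 546 in DGY1741, and 766 and 651 in DGY1743. Like ARG1, it was higher in DGY1743 than in DGY1735 (1.84-fold, adjusted p = 0.00596) and DGY1741 (1.44-fold, adjusted p = 0.00297). ARG81, a sensor subunit of the arginine repressor complex, was higher in DGY1741 than in DGY1726 by 1.73-fold (adjusted p = 2.06e-05).

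Of the 7 histidine genes, HIS2, HIS4 and HIS5 differed among the strains, and these were not all of the wider ranges, since HIS6 had a range of strain means of 0.55 on the log2 scale without passing (adjusted p = 0.0683, edgeR). HIS2 (YFR025C) encodes histidinol phosphatase, a late step. It was at 101 and 93.9 CPM in DGY1726, 106 and 109 in DGY1735, 177 and 159 in DGY1741, and 155 and 160 in DGY1743. Both libraries of DGY1741 and of DGY1743 were above the other 4. The ratio of DGY1741 to DGY1726 was 1.73 (adjusted p = 1.65e-05) and that of DGY1743 to DGY1726 was 1.6 (adjusted p = 0.000421). The step from DGY1735 to DGY1743 (1.45-fold, adjusted p = 0.0137) was lost without DGY1743 replicate 2 (0.0686). HIS4 (YCL030C), which encodes an enzyme of several steps and is a classical Gcn4 and Bas1 target, ran the other way. It was at 958 and 933 CPM in DGY1726, 857 and 776 in DGY1735, 560 and 593 in DGY1741, and 720 and 741 in DGY1743. No strains overlapped, and DGY1726 was above DGY1741 by 1.64-fold (adjusted p = 4.46e-05). DGY1735 was above DGY1741 by 1.4-fold (adjusted p = 0.0107), a call lost without either DGY1741 library (adjusted p 0.136 and 0.0539). The sites shown above include HIS4, and HIS2 was the only histidine gene without TGACTC in the window. HIS5 holds TGACTC and, unlike HIS4, had its highest mean in DGY1741, at 181 CPM in both libraries. There it was above DGY1735 by 1.26-fold (adjusted p = 0.0314, edgeR) and above DGY1743 by 1.34-fold (adjusted p = 0.0114). HIS5 was named after its values were seen. Whether the motif bears on these orders was not tested.

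Of the 11 branched-chain genes, 9 were higher in DGY1726 than in DGY1741 and 1 was lower, where 22% and 21.2% of all tested genes were called in these directions. Their summed level was 4329 and 4611 CPM in DGY1726, 4388 and 4131 in DGY1735, 3163 and 2969 in DGY1741, and 3898 and 3571 in DGY1743. The largest part of this sum was ILV5, the acetohydroxyacid reductoisomerase that serves all 3 branched-chain amino acids. ILV5 was at 1660 and 1725 CPM in DGY1726 and at 936 in both DGY1741 libraries, a ratio of 1.8 (adjusted p = 5.19e-06), and it was named after its values were seen. LEU2 (YCL018W), isopropylmalate dehydrogenase, was at 175 and 226 CPM in DGY1726, 211 and 225 in DGY1735, 86.0 and 75.3 in DGY1741, and 126 and 127 in DGY1743. DGY1741 was lowest, DGY1743 intermediate and the other 2 strains overlapped above them. LEU2 was higher in DGY1735 than in DGY1741 by 2.68-fold (log2 1.42, SE 0.12, adjusted p = 7.37e-07), and lower in DGY1741 than in DGY1743 by 1.57-fold (adjusted p = 4.83e-05).

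ILV6 was not called between DGY1726 and DGY1741, and was higher in DGY1741 than in DGY1735 by 1.23-fold (adjusted p = 0.0478, edgeR). BAT2 (YJR148W) was the 1 branched-chain gene called lower in DGY1726 than in DGY1741. It encodes the cytosolic branched-chain aminotransferase, whereas BAT1 encodes the mitochondrial one. BAT2 was at 161 and 154 CPM in DGY1726, 145 and 174 in DGY1735, 425 and 312 in DGY1741, and 502 and 424 in DGY1743. Every library of DGY1741 and DGY1743 was above every library of the other 2 strains. DGY1743 was above DGY1726 by 2.93-fold (log2 ratio of DGY1726 to DGY1743 -1.55, SE 0.13, adjusted p = 1.47e-08) and DGY1741 was above DGY1726 by 2.34-fold (adjusted p = 5.4e-07). BAT1 (YHR208W) was at 103 and 129 CPM in DGY1726, 93.9 and 93.9 in DGY1735, 63.4 and 60.8 in DGY1741, and 90.0 and 74.7 in DGY1743. It was lower in DGY1741 than in DGY1726 by 1.86-fold (adjusted p = 1.17e-05) and than in DGY1735 by 1.5-fold (adjusted p = 0.000794). Its calls between DGY1743 and either DGY1726 (1.41-fold, adjusted p = 0.0168) or DGY1741 (1.33-fold, adjusted p = 0.0258) were lost without 1 library, namely DGY1726 replicate 2 (adjusted p = 0.294) or DGY1743 replicate 2 (0.114) for the first, and either DGY1741 library (0.174 and 0.258) or DGY1743 replicate 1 (0.207) for the second, which DESeq2 also did not call (0.0621). Per length, the ratio of BAT1 to BAT2 was 0.611 and 0.804 in DGY1726 and 0.620 and 0.517 in DGY1735, but 0.143 and 0.186 in DGY1741 and 0.171 and 0.168 in DGY1743. The 2 genes thus moved in opposite directions between DGY1726 and DGY1741, each past the test.

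LEU4 and LEU9 encode isopropylmalate synthases, the entry to leucine. LEU4 (YNL104C) was at 212 and 244 CPM in DGY1726, 191 and 217 in DGY1735, 134 and 139 in DGY1741, and 263 and 206 in DGY1743. Both DGY1741 libraries were below all others, by 1.73-fold against DGY1743 (adjusted p = 1.04e-07) and 1.67-fold against DGY1726 (adjusted p = 4.23e-05). The call against DGY1735 (1.48-fold, adjusted p = 0.00166) was lost without DGY1741 replicate 1 (0.0536). LEU9 (YOR108W) was at 91.3 and 74.1 CPM in DGY1726, 73.4 and 62.1 in DGY1735, 54.8 and 49.7 in DGY1741, and 53.4 and 44.7 in DGY1743. Unlike LEU4, it was lower in DGY1743 than in DGY1726 (1.69-fold, adjusted p = 0.00133), as it was in DGY1741 (1.58-fold, adjusted p = 0.000471). Its call of DGY1735 over DGY1741 was lost without DGY1735 replicate 1 (0.279), without either DGY1741 library (0.121 and 0.163), in DESeq2 (0.0625) and with all 8 libraries in 1 fit (0.0704). Per length, LEU4 over LEU9 was 4.80 and 4.51 in DGY1743 and between 2.27 and 3.42 in the other 6 libraries.

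**Figure D3:**
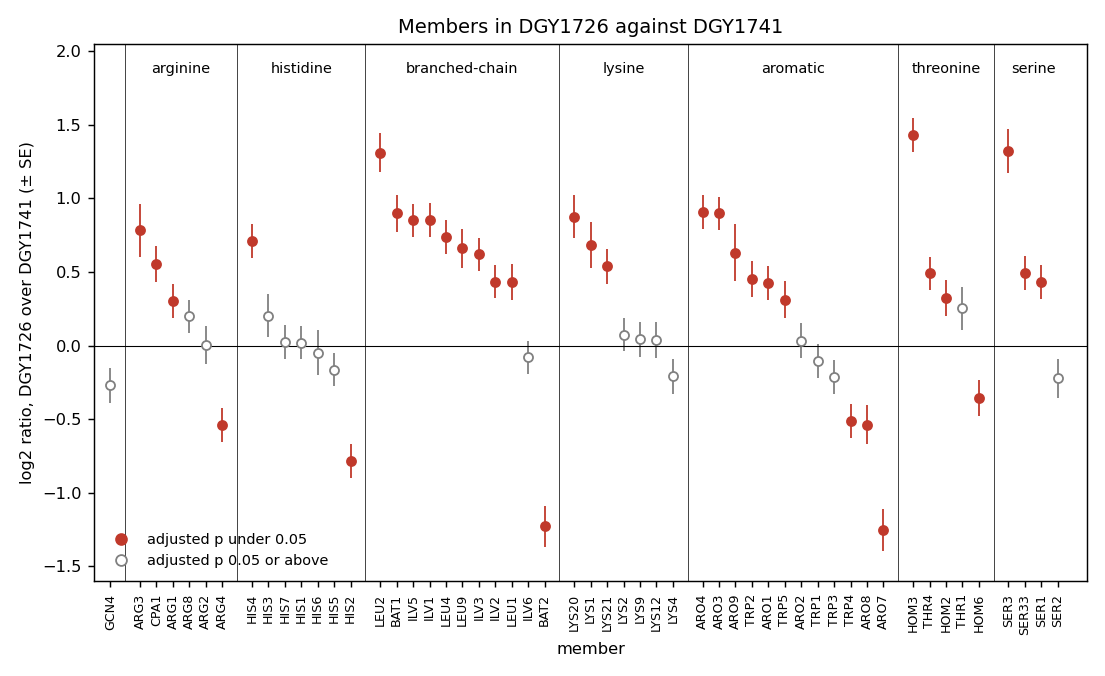
The log2 ratio of DGY1726 over DGY1741 is plotted for each of the 53 members, grouped by family, with its SE as a bar. Filled points passed the test. In the branched-chain family 9 filled points lie above 0 and BAT2 below, and HOM3 has the highest ratio at 1.43.

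Of the 7 lysine genes, LYS1, LYS9 and LYS20 differed among the strains, and not in the same order. LYS9, saccharopine reductase, was at 598 and 615 CPM in DGY1726, 720 and 754 in DGY1735, 630 and 547 in DGY1741, and 774 and 862 in DGY1743, and was named after its values were seen. Both DGY1743 libraries were above all others, by 1.34-fold against DGY1726 (adjusted p = 0.031, edgeR) and 1.39-fold against DGY1741 (adjusted p = 0.0101). LYS20 and LYS21 encode homocitrate synthases, the first step of the pathway, and share 37.8% and 36.7% of their 50-base stretches with another gene, so that the split of reads between them is uncertain. LYS20 (YDL182W) was at 163 and 215 CPM in DGY1726, 150 and 165 in DGY1735, 86.8 and 118 in DGY1741, and 126 and 111 in DGY1743. LYS20 was higher in DGY1726 than in DGY1741 by 1.84-fold (adjusted p = 7.93e-05). Calls of DGY1726 over DGY1743 (1.6-fold, adjusted p = 0.00113) and DGY1735 over DGY1741 (1.52-fold, adjusted p = 0.00407) were lost without DGY1726 replicate 2 (0.0534) and DGY1741 replicate 1 (0.0915), respectively. LYS21 (YDL131W) was at 201 and 224 CPM in DGY1726, 166 and 170 in DGY1735, 133 and 159 in DGY1741, and 195 and 139 in DGY1743. It did not pass among the strains (adjusted p = 0.0507) but was higher in DGY1726 than in DGY1741 by 1.45-fold (adjusted p = 0.00142). LYS1 (YIR034C), saccharopine dehydrogenase at the last step, was at 56.5 and 74.9 CPM in DGY1726, 47.8 and 53.6 in DGY1735, 35.6 and 45.9 in DGY1741, and 42.2 and 48.0 in DGY1743. The level in DGY1726 was above that in DGY1741 by 1.6-fold (adjusted p = 0.00154). The call against DGY1743 (1.46-fold, adjusted p = 0.0203) was lost without DGY1726 replicate 2 (0.393) or DGY1743 replicate 1 (0.0793). LYS2, the aminoadipate reductase in the middle of the pathway, had 556 to 649 CPM and was not called in any pair, and LYS14, the pathway's activator, did not pass among the strains.

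Among the aromatic genes, the entry step, the branch to phenylalanine and tyrosine, and the transaminases each had their own pattern. ARO3 and ARO4 encode the isoenzymes of the first step, of which Aro3 is inhibited by phenylalanine and Aro4 by tyrosine. ARO3 (YDR035W) was at 153 and 155 CPM in DGY1726, 170 and 137 in DGY1735, 81.7 and 83.1 in DGY1741, and 152 and 142 in DGY1743. Only DGY1741 stood apart, lower by 1.87-fold than DGY1726 (adjusted p = 2.15e-06), 1.84-fold than DGY1735 (adjusted p = 0.000103) and 1.79-fold than DGY1743 (adjusted p = 3.02e-08). ARO4 (YBR249C) was at 152 and 140 CPM in DGY1726, 127 and 118 in DGY1735, 74.3 and 81.4 in DGY1741, and 115 and 79.4 in DGY1743. It was lower in DGY1741 than in DGY1726 by 1.87-fold (adjusted p = 3.01e-06) and than in DGY1735 by 1.56-fold (adjusted p = 0.000554). The call of DGY1726 over DGY1743 (1.51-fold, adjusted p = 0.00648) was lost without DGY1743 replicate 2 (0.0899).

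ARO7 (YPR060C), chorismate mutase, commits chorismate to phenylalanine and tyrosine. It was at 108 and 73.6 CPM in DGY1726, 109 and 85.4 in DGY1735, 223 and 210 in DGY1741, and 125 and 168 in DGY1743. The DGY1741 libraries were the highest and did not overlap with another strain. DGY1741 was above DGY1726 by 2.38-fold (log2 ratio of DGY1726 to DGY1741 -1.25, SE 0.14, adjusted p = 8.07e-07) and above DGY1735 by 2.25-fold (adjusted p = 1.43e-05). ARO7 was thus highest in the strain where ARO3 and ARO4 were lowest. Its calls of DGY1743 over DGY1726 (1.6-fold, adjusted p = 0.00415) and of DGY1741 over DGY1743 (1.47-fold, adjusted p = 0.000339) were lost without 1 library, namely DGY1726 replicate 2 (0.0923) or DGY1743 replicate 2 (0.0573) for the first and DGY1743 replicate 1 (0.0746) for the second. TYR1, prephenate dehydrogenase of the tyrosine branch and no member, was also higher in DGY1741 than in DGY1726 (1.32-fold, adjusted p = 0.00695). PHA2, of the phenylalanine branch and no member either, had the opposite order in this pair. It was at 26.8 and 27.3 CPM in DGY1726 and at 17.0 and 23.2 in DGY1741. That difference was not called (1.34-fold, adjusted p = 0.066, edgeR).

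ARO9 had the widest range of all 53 members. ARO8 and ARO9 encode aromatic aminotransferases, and Aro9 serves mainly in the breakdown of aromatic amino acids, under the activator Aro80. ARO9 (YHR137W) was at 21.9 and 20.1 CPM in DGY1726, 17.2 and 18.3 in DGY1735, 15.4 and 11.7 in DGY1741, and 63.5 and 56.7 in DGY1743. DGY1743 was far above the rest, by 4.46-fold against DGY1741 (adjusted p = 2.37e-27), 3.36-fold against DGY1735 (adjusted p = 0.000244) and 2.85-fold against DGY1726 (adjusted p = 1.07e-06). The log2 ratios to DGY1743 were -2.16 for DGY1741 (SE 0.19) and -1.75 for DGY1735 (SE 0.15). Each pair was fitted alone, so these p-values do not rank the pairs. The call of DGY1726 over DGY1741 (1.55-fold, adjusted p = 0.0135) was lost without DGY1726 replicate 1 (0.0827) or DGY1741 replicate 2 (0.146). ARO8 (YGL202W) was at 201 and 182 CPM in DGY1726, 159 and 153 in DGY1735, 314 and 242 in DGY1741, and 352 and 284 in DGY1743. It was higher in both DGY1741 and DGY1743, by 2.03-fold in DGY1743 over DGY1735 (adjusted p = 0.0028) and 1.8-fold in DGY1741 over DGY1735 (adjusted p = 0.000299). The call of DGY1741 over DGY1726 (1.45-fold, adjusted p = 0.00251) was lost without DGY1741 replicate 1 (0.0743). Per length, ARO8 over ARO9 was 20.9 and 21.2 in DGY1741, 8.60 to 9.46 in DGY1726 and DGY1735, and 5.68 and 5.13 in DGY1743. ARO80 did not pass among the strains, with 133 to 174 CPM. The tryptophan genes TRP1 to TRP5 had ranges of strain means between 0.13 and 0.51 on the log2 scale. Of these only TRP4 passed among the strains (adjusted p = 0.00341, edgeR). TRP4 was higher in DGY1741 than in DGY1726 by 1.43-fold (adjusted p = 0.0013). In the same pair TRP2 and TRP5 were lower in DGY1741, by 1.37-fold (adjusted p = 0.00453) and 1.24-fold (adjusted p = 0.0494).

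**Figure D4:**
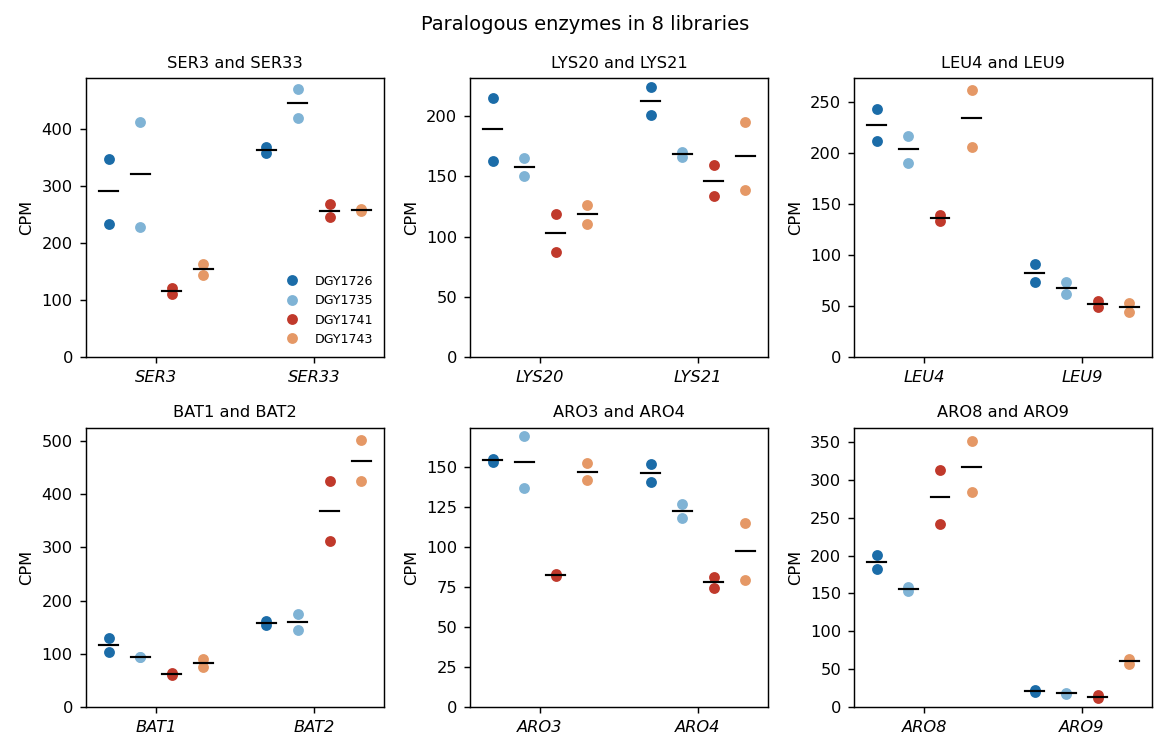
CPM of the 6 paralog pairs, with a point for each library, coloured by strain, and a bar at the strain mean. SER3, LYS20, LEU9, BAT1 and ARO4 are highest in DGY1726 or DGY1735, whereas BAT2 and ARO8 are highest in DGY1741 and DGY1743, and ARO9 reaches 63.5 CPM in DGY1743 only.

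In the threonine pathway the first and the last enzyme were both higher in DGY1726 than in DGY1741 and DGY1743. HOM3 (YER052C), aspartate kinase, opens the route to threonine and methionine. It was at 239 and 261 CPM in DGY1726, 237 and 189 in DGY1735, 89.8 and 94.9 in DGY1741, and 147 and 120 in DGY1743. No strains overlapped, with DGY1741 lowest and DGY1743 next, though the nearest libraries of DGY1726 and DGY1735 lay close together. DGY1726 was above DGY1741 by 2.7-fold (log2 1.43, SE 0.12, adjusted p = 6.12e-09) and above DGY1743 by 1.88-fold (adjusted p = 2.32e-05). DGY1735 was above DGY1741 by 2.29-fold (adjusted p = 9.7e-06). The call of DGY1735 over DGY1743 (1.61-fold, adjusted p = 0.0244) was lost without either DGY1743 library (0.0595 and 0.158), and that of DGY1743 over DGY1741 (1.45-fold, adjusted p = 0.00103) without DGY1741 replicate 1 (0.0572). THR4 (YCR053W), threonine synthase at the last step, was at 150 and 158 CPM in DGY1726, 130 and 127 in DGY1735, 107 and 112 in DGY1741, and 105 and 82.5 in DGY1743. No strains overlapped. THR4 was higher in DGY1726 than in DGY1743 by 1.65-fold (adjusted p = 0.000532) and than in DGY1741 by 1.4-fold (adjusted p = 0.00146). GLY1, threonine aldolase, which makes glycine from threonine and is no member, was at 300 and 303 CPM in DGY1726, 296 and 231 in DGY1735, 155 and 156 in DGY1741, and 184 and 169 in DGY1743. GLY1 was higher in DGY1726 than in DGY1741 by 1.94-fold (adjusted p = 1.34e-06).

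SER3 and SER33 encode phosphoglycerate dehydrogenases, which open the serine pathway. SER3 (YER081W) was at 347 and 234 CPM in DGY1726, 412 and 228 in DGY1735, 111 and 121 in DGY1741, and 163 and 144 in DGY1743. Its replicates differed more than those of any other member in DGY1726 and DGY1735, yet all 4 of those libraries were above the other 4. SER3 was higher in DGY1726 than in DGY1741 by 2.5-fold (log2 1.32, SE 0.15, adjusted p = 6.41e-07) and than in DGY1743 by 1.9-fold (adjusted p = 0.000121). For DGY1735 the ratio to DGY1741 was 2.74 (adjusted p = 0.000116), a call lost without DGY1741 replicate 1 (0.0748), and the ratio to DGY1743 was 2.09 (adjusted p = 0.0285), a call lost without either DGY1743 library (0.127 and 0.194). The call of DGY1743 over DGY1741 (1.33-fold, adjusted p = 0.0133) was lost without either DGY1741 library (0.211 and 0.0563) or DGY1743 replicate 1 (0.0940), and in a fit of all 8 libraries (0.252). SER33 (YIL074C) was at 367 and 357 CPM in DGY1726, 470 and 419 in DGY1735, 267 and 245 in DGY1741, and 259 and 256 in DGY1743. SER33 was higher in DGY1735 than in DGY1741 by 1.72-fold (adjusted p = 0.000314), and higher in DGY1726 than in both DGY1741 (1.41-fold, adjusted p = 0.00177) and DGY1743 (1.41-fold, adjusted p = 0.00497). The ratio of DGY1735 to DGY1743 was 1.73 (adjusted p = 0.0054), and the call was lost without DGY1743 replicate 2 (0.0686). SRG1 is a non-coding transcript that runs through the SER3 promoter and, when made, represses it. It shares 77 bases with SER3 on the same strand, where a read counts for both. Its own level was 52.9 ± 6.30 CPM in DGY1726, 50.3 ± 5.76 in DGY1735, 52.5 ± 1.86 in DGY1741 and 67.4 ± 0.816 in DGY1743 (SD, n = 2). SRG1 had its highest mean in DGY1743, where SER3 was at 163 and 144 CPM, and SER3 had its lowest mean in DGY1741. Differences in SRG1 among the strains, and any link of them to SER3, were not tested.

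Pathway families were then set side by side by the median of their members, centred on the mean of the 4 strains on the log2 scale. Branched-chain genes had medians of 0.25 and 0.30 in the DGY1726 libraries, 0.19 and 0.07 in DGY1735, -0.32 and -0.36 in DGY1741, and 0.03 and -0.15 in DGY1743. Serine genes had 0.19 and 0.10 in DGY1726, 0.44 and 0.13 in DGY1735, -0.26 and -0.39 in DGY1741, and -0.27 and -0.18 in DGY1743. Both families were thus lowest or near lowest in DGY1741, but serine genes were about as low in DGY1743. Arginine genes were lowest in DGY1735, at -0.10 and -0.30, and above 0 in all libraries of DGY1726 and DGY1743. Aromatic genes were above 0 in both DGY1743 libraries, at 0.09 and 0.13, where ARO8 and ARO9 were at their highest. Histidine genes were at -0.13 and -0.08 in DGY1743, which overlapped with 0.01 and -0.11 in DGY1735. They were above 0 in DGY1726, at 0.15 and 0.03, and in DGY1741, at 0.11 and 0.08. Threonine genes were lowest in DGY1743, at -0.13 and -0.31, against -0.08 and -0.09 in DGY1741. They were at 0.13 and 0.41 in DGY1726 and at 0.12 and 0.08 in DGY1735. Lysine genes had 0.18 and 0.03 in DGY1726, 0.07 and 0.07 in DGY1735, -0.11 and -0.11 in DGY1741, and -0.08 and -0.04 in DGY1743. The median over all 53 members was 0.15 and 0.11 in DGY1726, 0.08 and 0.02 in DGY1735, -0.13 and -0.09 in DGY1741, and -0.03 and -0.04 in DGY1743, while that over all tested genes ran from -0.0162 to 0.00427 over the libraries.

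**Figure D5:**
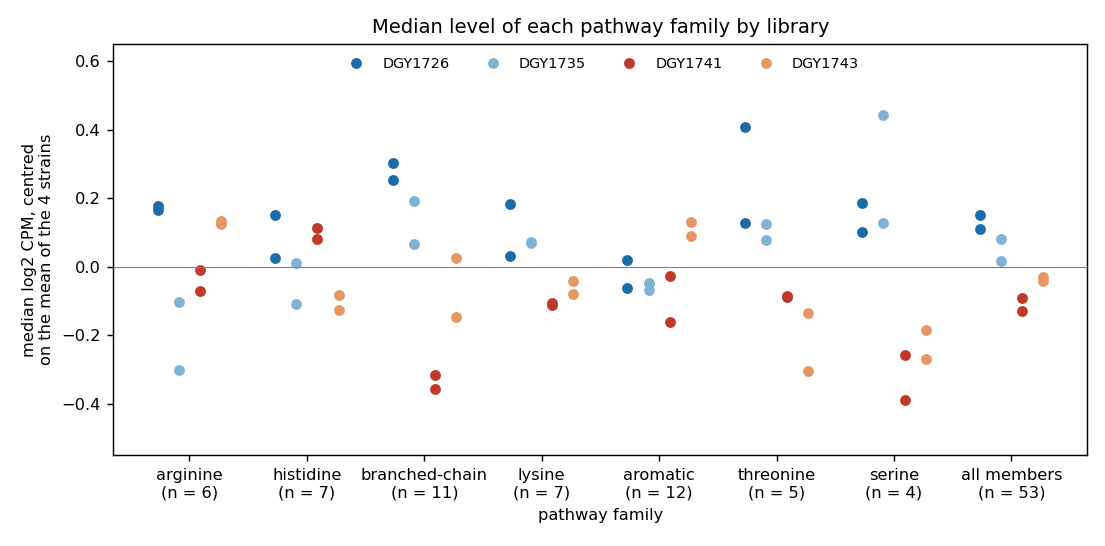
Points are the median over a family's members of log2 CPM, centred on the mean of the 4 strains, with 1 point per library. Branched-chain genes are at -0.32 and -0.36 and serine genes at -0.26 and -0.39 in the DGY1741 libraries, arginine genes are lowest in DGY1735, and all 53 members span -0.13 to 0.15.

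The pairs of strains give the same data as counts. Each strain enters 3 pairs, so the counts share libraries. Where a library was left out, counts over all genes in that fit are not given. A change in the members' count there cannot be read as particular to them. Between DGY1726 and DGY1741, 28 members were higher in DGY1726 and 7 lower, where 22% and 21.2% of all tested genes were called in these directions. The 7 that were lower were ARG4, HIS2, BAT2, TRP4, ARO7, ARO8 and HOM6. Between DGY1726 and DGY1743, 17 members were higher in DGY1726 and 7 lower, against 13.8% and 13.4% of all genes. Without DGY1726 replicate 2 these counts fell to 9 and 4. Between DGY1735 and DGY1741, 18 members were higher in DGY1735 and 8 lower, against 18.2% and 20.3%, and without DGY1741 replicate 1 only 6 were higher.

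The other 3 pairs held fewer calls. Between DGY1735 and DGY1743, 5 members were higher in DGY1735 (CPA1, LEU2, HOM3, SER3 and SER33) and 7 lower (ARG1, ARG3, ARG4, HIS2, BAT2, ARO8 and ARO9), against 6.4% and 9.72% of all genes. The count of 5 became 10 without DGY1735 replicate 2 and 1 without DGY1743 replicate 2, when that of 7 became 4. Between DGY1741 and DGY1743, 4 members were higher in DGY1741 (CPA1, HIS5, HIS6 and ARO7) and 11 lower, against 10.3% and 14.3%. The count of 4 became 2 without DGY1741 replicate 1 and 1 without DGY1741 replicate 2, when that of 11 became 7. Between DGY1726 and DGY1735, 1 member was higher and 0 were lower in edgeR's test, against 1.1% and 0.651% of all genes. At an unadjusted p under 0.05 these counts were 11 and 2, against 481 and 347 of the 5527 tested genes. DESeq2 called 3 and 0 members, against 116 and 75 of all genes. The 1 call was ARG3, ornithine carbamoyltransferase, named after its values were seen, at 217 and 256 CPM in DGY1726 against 151 and 137 in DGY1735 (1.64-fold, adjusted p = 0.0294). It was lost without either library of DGY1726, while without DGY1735 replicate 2 the count was 2.

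Members with and without the Gcn4 core letters were compared as a description. Of the 28 with TGACTC in the 250 bases before the start, 14 differed among the strains, and of the 25 without it 18 did, where 47.3% of all tested genes differed. Between DGY1726 and DGY1741, 13 of the 28 were higher in DGY1726 and 2 lower, with a median log2 ratio of 0.23. Of the 25 without it 15 were higher and 5 lower, with a median of 0.43. The shares over all tested genes were 22% and 21.2%. Between DGY1741 and DGY1743, the 28 had 2 higher and 2 lower in DGY1741, and the 25 had 2 higher and 9 lower, against 10.3% and 14.3% of all tested genes. The low branched-chain levels of DGY1741 thus included genes with the core, such as LEU4 and BAT1, and genes without it, such as LEU2. All 4 genes with the inner Leu3 letters (LEU1, LEU2, BAT1 and ILV3) were higher in DGY1726 than in DGY1741, with a median log2 ratio of 0.76. Of the 49 members without these letters, 24 were higher and 7 lower, with a median of 0.25. The branched-chain genes ILV1, ILV2, ILV5, LEU4 and LEU9 have no match in the window and were also higher in this pair. BAT2 and ILV6 have none there either, and BAT2 was lower and ILV6 not called. Only exact matches within the 250 bases were searched, for this motif and for TGACTC. A gene without a match can still hold a site farther upstream or with other letters. LEU3 itself did not pass among the strains, at 119 to 151 CPM. Of the 11 members with GATAAG in the window, 10 differed among the strains, and of the 42 without it 22 did. Between DGY1726 and DGY1741, the 11 had 6 higher and 4 lower in DGY1726, and the 42 had 22 higher and 3 lower.

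Biosynthesis genes outside the 53 were counted from a list of 12: ARG5,6, ARG7, ORT1, LYS5, TYR1, PHA2, PRO1, PRO2, PRO3, ASN1, ASN2 and GLY1. Of these, 7 differed among the strains, against 47.3% of all tested genes. Between DGY1726 and DGY1741, 1 was higher in DGY1726 and 3 lower (22% and 21.2% of all tested genes), and between DGY1726 and DGY1743, 1 was higher and 4 were lower (13.8% and 13.4%). ASN1, asparagine synthetase, was at 289 and 297 CPM in DGY1726, 239 and 316 in DGY1735, 310 and 318 in DGY1741, and 452 and 442 in DGY1743. ASN1 was higher in DGY1743 than in DGY1726 by 1.52-fold (adjusted p = 0.00122), while its paralog ASN2 did not pass among the strains. PRO3, the last step to proline, was higher in DGY1741 than in DGY1726 by 1.51-fold (adjusted p = 0.000303). Of 9 pathway regulators, 4 (44.4%) differed among the strains, near the share of all tested genes, and these were ARG81, ARG82, MCM1 and BAS1.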

How the data were processed

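RNA-seq of 8 cultures, 2 per strain, was used. The authors trimmed reads with cutadapt, aligned them with STAR to the R64-1-1 genome and deposited raw strand-specific counts per annotated feature made with bedtools, with no normalization. A read over several features counts in each, and the treatment of reads with several alignments is not given in the sources used here. The labels give polyA RNA, whereas the methods state no such selection.

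Of 6600 protein-coding genes, the 5527 whose counts averaged 100 or more per library were scaled with TMM and tested with edgeR 4.0.16 in R 4.3.3 (quasi-likelihood F-test, Benjamini-Hochberg over all tested genes, threshold 0.05), with all 8 libraries among strains and 4 libraries per pair. Scripts were tested on simulated counts. CPM are counts per 1e6 of the TMM-scaled total and SE is the log2 ratio over the square root of F. Total gene counts were 10298053 to 15326760 per library, so precision was limited by 2 cultures per strain rather than by depth. Replicates differed by a chi-square of 16.1 to 55.8 per degree of freedom, and none is a library deposited again. P-values weigh a strain difference against the spread between these replicate cultures, which the fit moderates with that of all tested genes. Each pair was fitted alone, so p-values of different pairs are not on the same scale.

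The members, families and lists were chosen with earlier results of these data known. Named were GCN4, the 2 members of each family with the widest range among those that passed, and 6 paralog pairs. Others are named as exceptions after their values were seen or within complete lists of calls. Alternatives were DESeq2 1.42.0, RLE factors, no filter, nuclear scaling, all libraries in 1 fit, a replicate block and leaving out each library. Results for 1 gene of the lists are not reported here.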

Additional observations from a re-analysis of the deposited data

How the results depend on the processing

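Of 133 recomputed counts of members, 116 stayed within 1.5 times the count given, 7 were higher and 10 lower. None of the 720 recomputed ratios of named members changed direction, and 43 lost their call. DESeq2 gave 3 members higher in DGY1726 than in DGY1735, in place of 1, while calls over all genes went from 61 to 116. It gave 9 higher in DGY1735 than in DGY1743, in place of 5. That second count was 10 with all 8 libraries in 1 fit. Without the filter on low counts, 2 members were higher in DGY1726 than in DGY1735, with 69 over all genes. The labels tie replicate numbers to no shared day or batch. The correlation of replicate deviations was 0.25, 0.40 and 0.22 in the pairs with DGY1726 and -0.25 to 0.07 in the other 3, and the numbers were not taken as pairs. With a replicate block 3 members were higher in DGY1726 than in DGY1735, with 155 over all genes. In DGY1726 against DGY1741, 10 in place of 7 were lower. Calls over all genes in that pair went from 1214 higher and 1171 lower to 1635 and 1565.

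With 1 library left out, members higher in DGY1726 than in DGY1735 ran from 0 (without either DGY1726 library) to 2 (without DGY1735 replicate 2), and those higher in DGY1726 than in DGY1743 from 9 (without DGY1726 replicate 2) to 18, with 4 to 7 lower. Members higher in DGY1735 ran from 6 (without DGY1741 replicate 1) to 19 against DGY1741, and from 1 (without DGY1743 replicate 2) to 10 (without DGY1735 replicate 2) against DGY1743, with 4 to 8 lower. Between DGY1741 and DGY1743, 1 (without DGY1741 replicate 2) to 4 were higher and 7 (without the same library) to 15 lower. A fit with an arm of 1 culture assumes that it varies like the other arm. Counts over all genes in these fits are not given, so the changes cannot be read as particular to the members. Of 352 recomputed family medians, 62 moved by more than the spread between replicates. The causes of these shifts were not tested. The depth was ample for these genes, of which the lowest had a mean of 309.5 counts, so that 2 cultures per strain set the limit.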
